A study of Homo sapiens with 2 samples.

Results

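The coat genes described here are the 7 subunits of the COPI coatomer and the heavy chain of clathrin, 8 of the 57820 gene IDs counted. They were taken as a named group of cytosolic coat proteins, by Ensembl ID, under a rule that did not use their values. The choice was made with earlier results of these data known. The genes are COPA (ENSG00000122218), COPB1 (ENSG00000129083), COPB2 (ENSG00000184432), COPG1 (ENSG00000181789), COPE (ENSG00000105669), ARCN1 (ENSG00000095139), COPZ1 (ENSG00000111481) and CLTC (ENSG00000141367). The measurement was ribosome profiling, in which RNase I digests exposed mRNA and the stretches shielded by ribosomes are sequenced. The 2 libraries form 1 group, HEK293 cells (an established human embryonic kidney line) that received DMSO vehicle for 12 h. Replicate 2 came from batch 2 and replicate 1 from batch 1. With 1 group, coat genes were compared with each other inside each library and across the pair of libraries, and no p-value was computed. Minocycline-treated cells and matched RNA levels were not analysed here, so a footprint count holds both the amount of an mRNA and its translation.

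Coatomer is the coat of vesicles that carry proteins and membrane from the Golgi back to the endoplasmic reticulum and between Golgi cisternae. It is recruited from the cytosol as a whole complex by the small GTPase ARF1 in its GTP-bound form. Its outer layer is built from the alpha (COPA), beta' (COPB2) and epsilon (COPE) subunits. Its inner layer, related to the clathrin adaptor complexes, holds beta (COPB1), gamma (COPG1), delta (ARCN1) and zeta (COPZ1). Clathrin heavy chain forms the legs of the triskelion, the unit of the lattice on vesicles that leave the plasma membrane and the trans-Golgi network. Coat proteins are made on free ribosomes in the cytosol, although the membranes they act on belong to the secretory pathway.

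The promoters of the coatomer genes shared a short sequence. The motif CCACGTC (either strand, 7 bases) is the core of the unfolded protein response element, to which the transcription factors XBP1 and ATF6 are known to bind. It stood in the promoter window of 6 of the 7 coatomer genes, COPE being the exception, and was not in the CLTC window. Of 15843 protein-coding genes in the RefSeq promoter table (GRCh38.p14, 250 bases before to 50 after each annotated start), 4.66% held it, and of all 27305 genes 3.82%. All 8 genes were matched to the table by symbol, with 1 start each except COPB2, which had 2. The motifs were picked after these promoters had been read, so the counts are a description. A match is not evidence of binding, and promoter use was not measured. The matches are printed 5′ to 3′ on the gene's strand, with the motif in capitals and 11 bases on each side, because they show a stretch that 6 of the 7 coatomer genes had in common.
COPA, chr1:160343227-160343255, minus strand: agagggtcgctGACGTGGaggcgtccgaa
COPB2, chr3:139389826-139389854, minus strand: gctcagcggcaCCACGTCacggcccttag
COPB2, chr3:139389633-139389661, minus strand: tcccggaagttCCACGTCagtcagtctga
COPB1, chr11:14499842-14499870, minus strand: cccacccccttCCACGTCagccaaggact
COPG1, chr3:129249586-129249614, plus strand: gagcgctgggcGACGTGGccagtcggggc
ARCN1, chr11:118572379-118572407, plus strand: ttccggttgaaGACGTGGcttggggccgc
COPZ1, chr12:54325126-54325154, plus strand: cttttgcggctCCACGTCggcaccagctg

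The matches lay close to the annotated starts. The first base of the motif stood at +7 in COPA, -48 in COPB1, -9 in COPG1, -19 in ARCN1 and +7 in COPZ1. In COPB2 it stood at -163 and +31 from the upstream of its 2 starts, and at -196 and -3 from the other. A second motif, CCGGAAG (either strand), the core bound by ETS-family factors such as GABPA, was also found in 6 of the 7 coatomer genes, here with COPB1 as the exception. It was present in 16.5% of protein-coding genes. Both motifs stood in 5 coatomer genes, COPA, COPB2, COPG1, ARCN1 and COPZ1, against 0.915% of protein-coding genes. Since both were picked after these promoters had been read, that contrast is a description and not a test. The motifs did not overlap, and were nearest in COPB2, with 2 bases between them, and in ARCN1, with 5. COPE held an exact match of the ETS core alone, shown here because it is the coatomer gene without an exact CCACGTC. Its stretch also holds GACGTGT, which differs only in its last base from GACGTGG, the opposite strand of CCACGTC.
COPE, chr19:18919382-18919410, minus strand: cccgtgtcttgCTTCCGGctgacgtgtct

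**Figure D1:**
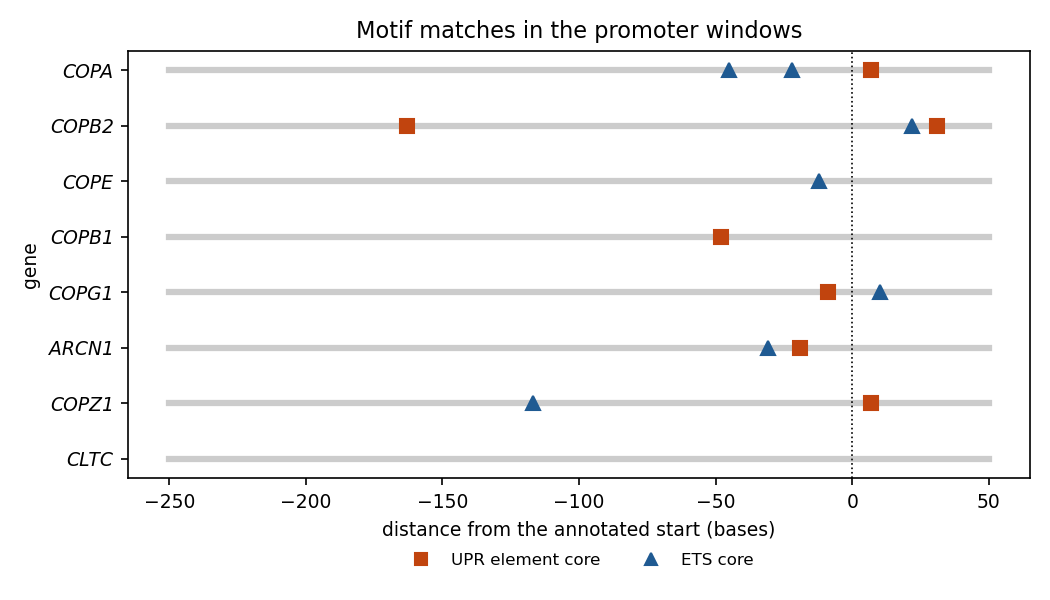
Positions of the unfolded protein response (UPR) element core (squares) and the ETS core (triangles) in the promoter window of each gene, in bases from the annotated start (dotted line). Most matches lie within 50 bases of the start, COPB2 is drawn from its upstream start, and CLTC has no match.

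Replicate 2 held 611266 counts and replicate 1 held 865838, of which the 2 highest IDs took 23.2% and 17.6%. Levels are therefore given as CPM (counts per 1000000 of the library's counts), and log2 ratios are taken after TMM scaling, which offsets such unequal shares. CPM and shares of all counts are not TMM-scaled, and they place replicate 2 lower than TMM does. COPA, for example, had a log2 ratio of replicate 2 over replicate 1 of -0.66 by library size and -0.55 after TMM. Intervals around counts are exact Poisson intervals at 95%, and those around shares are exact Clopper-Pearson intervals at 95%. Both cover counting error only and treat amplified fragments as independent molecules. The share of all IDs whose intervals do not overlap between the libraries was not computed. Overlap or its absence is therefore a description of each gene and does not set it apart from the other IDs. Each sample was given as 2 plates of 15 cm. The labels do not say whether the plates of the 2 libraries came from separate cultures, so the spread between the libraries may be technical. The IDs of the table are not paired with names in the sources used here, beyond the 8 listed above. For that reason the line's markers, ARF1, the clathrin light chains and the other coat genes listed for comparison were not analysed. Coding lengths were not available either. A longer coding sequence yields more fragments at the same ribosome density, so the counts of different coat genes are not ranked as levels of synthesis.

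All 8 coat genes were read in both libraries, each with at least 100 counts summed over the pair. Among the 12262 IDs above 0 in both libraries, they ranked by mean CPM from percentile 85.6 (COPE) to percentile 99.2 (CLTC), with a median of 93.4. Together they made up 0.163% of replicate 2 (interval 0.153 to 0.174) and 0.260% of replicate 1 (interval 0.249 to 0.271), a mean of 0.212% ± 0.0685 (SD, n = 2). The 7 coatomer genes alone made up 0.103% of replicate 2 (interval 0.0950 to 0.111) and 0.138% of replicate 1 (interval 0.130 to 0.146). CLTC alone made up 0.0603% of replicate 2 (interval 0.0543 to 0.0668) and 0.122% of replicate 1 (interval 0.115 to 0.130). Both shares were lower in replicate 2, and neither pair of intervals overlapped.

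Of the outer layer, COPA and COPB2 were lower in replicate 2 and COPE was not. COPA, whose WD-repeat domain is known from yeast to bind the dilysine retrieval signal of cargo, had 128 counts in replicate 2 and 287 in replicate 1. That is 209 CPM (175 to 249) in replicate 2 and 332 CPM (294 to 372) in replicate 1. COPB2, which carries a related WD-repeat domain, had 78.5 counts in replicate 2 and 235 in replicate 1, or 128 CPM (102 to 160) in replicate 2 and 271 CPM (238 to 308) in replicate 1. For both genes the interval of replicate 2 lay wholly below that of replicate 1. COPE, a helical-repeat subunit that binds COPA, had 57.5 counts in replicate 2 and 70 in replicate 1, or 94.1 CPM (71.3 to 122) in replicate 2 and 80.9 CPM (63.0 to 102) in replicate 1. Its intervals overlapped, and its order was opposite to that of its outer-layer partners.

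In the inner layer, COPB1, COPG1 and ARCN1 were lower in replicate 2 and COPZ1 was not. COPB1, the beta subunit, had 146 counts in replicate 2 and 250.67 in replicate 1, or 239 CPM (202 to 281) in replicate 2 and 290 CPM (255 to 328) in replicate 1. COPG1, the gamma subunit, had 67 counts in replicate 2 and 119 in replicate 1, or 110 CPM (84.9 to 139) in replicate 2 and 137 CPM (114 to 164) in replicate 1. Both genes were lower in replicate 2, by amounts within their counting intervals. ARCN1, the delta subunit, had 95 counts in replicate 2 and 160 in replicate 1, or 155 CPM (126 to 190) in replicate 2 and 185 CPM (157 to 216) in replicate 1. COPZ1, the small zeta subunit that pairs with gamma, had 57 counts in replicate 2 and 72 in replicate 1, or 93.3 CPM (70.6 to 121) in replicate 2 and 83.2 CPM (65.1 to 105) in replicate 1. The intervals of the 2 libraries overlapped for each of these 4 genes.

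CLTC gave the most fragments of the 8, with 368.5 counts in replicate 2 and 1058 in replicate 1. That is 603 CPM (543 to 668) in replicate 2 and 1222 CPM (1149 to 1298) in replicate 1, a mean of 912 ± 438 (SD, n = 2). Its place among the 12262 IDs was 186 in replicate 2 and 79 in replicate 1. Its CPM in replicate 2 thus lay far below that in replicate 1, with no overlap of the intervals.

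**Figure D2:**
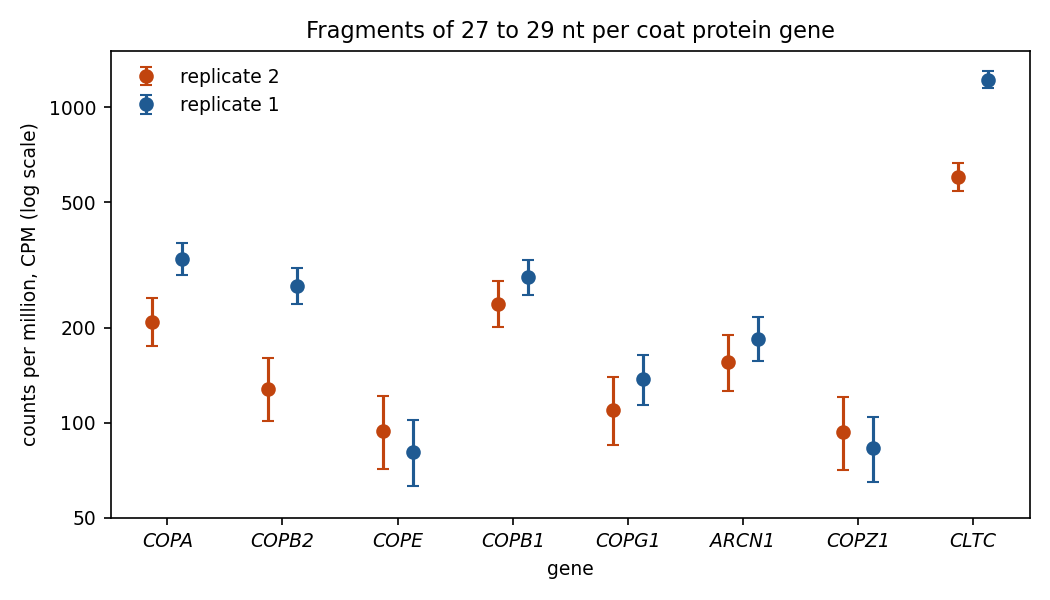
CPM of each coat gene (log axis) in replicate 2 (orange) and replicate 1 (blue), with exact Poisson intervals at 95%, in the order outer coatomer layer, inner layer, clathrin. COPA, COPB2 and CLTC have intervals that do not overlap, with replicate 2 lower, and genes are not corrected for coding length. CPM is not TMM-scaled, and the share of all IDs with such intervals was not computed.

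After TMM scaling, 6 of the 8 genes were lower in replicate 2, COPE and COPZ1 being the other two. COPB2 had a log2 ratio of replicate 2 over replicate 1 of -0.97 (95% exact binomial interval -1.37 to -0.60), and CLTC one of -0.91 (-1.09 to -0.74). These were the only coat genes past 1.5-fold, both lower in replicate 2, and none was higher past 1.5-fold. Among 6953 IDs with at least 20 summed counts, 18.1% were lower in replicate 2 past that fold and 19.7% were higher. Since sparse IDs scatter more, 2239 IDs with at least 100 summed counts are the closer measure, where 11.7% were lower and 8.62% higher. With at least 300 summed counts, a minimum set after seeing the data and reached by COPA, COPB1, COPB2 and CLTC, 7.58% of 739 IDs were lower and 7.17% higher. A count of 2 of 8, or 2 of 4, on so few genes is given beside these shares as a description.

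COPB2 and CLTC stood in the lower tail of the table. Of the 2239 IDs with at least 100 summed counts, 3.17% had a ratio as low as that of COPB2 and 3.93% one as low as that of CLTC. Of 176 IDs with at least 1000 summed counts, a set of fragment numbers nearer to that of CLTC, 4 were as low, CLTC included. COPA followed with -0.55 (-0.87 to -0.25), just inside the 1.5-fold limit, and 12.9% of the 2239 IDs were as low. By library size in place of TMM, COPA was at -0.66, past the limit.

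The other 5 genes had intervals that included 0, and the share of all IDs with such intervals was not computed. COPG1 was at -0.22 (-0.67 to 0.23), COPB1 at -0.17 (-0.48 to 0.13) and ARCN1 at -0.14 (-0.52 to 0.24). COPE was at 0.33 (-0.19 to 0.86) and COPZ1 at 0.27 (-0.25 to 0.80). The intervals of COPG1, COPE and COPZ1 reach past 1.5-fold, so equal levels are not shown. The median over the 8 genes was -0.19, beside -0.07 over the 2239 IDs, of which 57.0% were lower in replicate 2. The ratios compare 2 libraries of 1 condition, and with 1 library per batch, batch and replicate cannot be told apart.

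**Figure D3:**
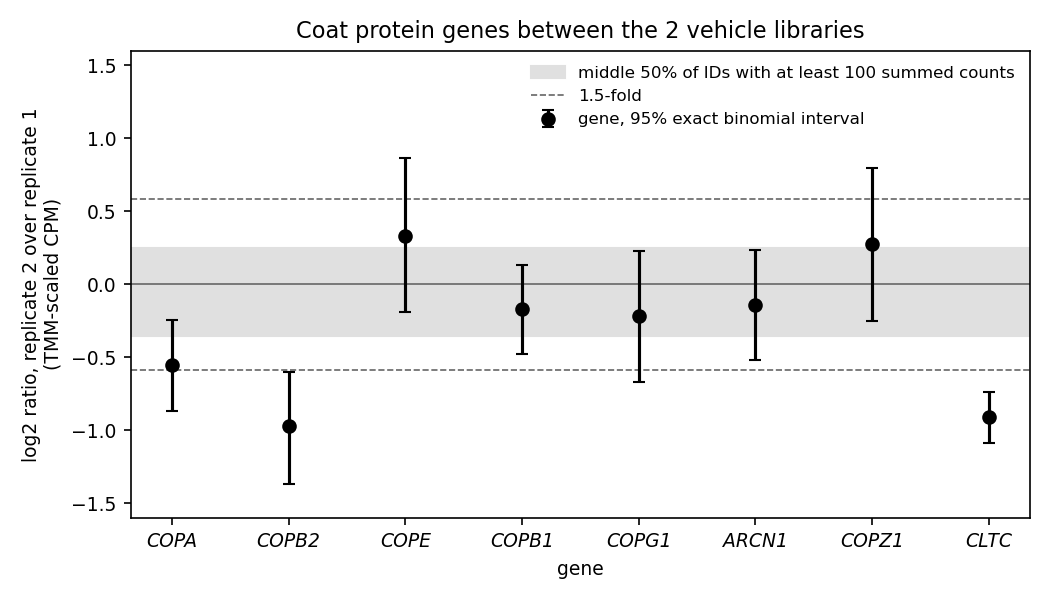
Log2 ratio of replicate 2 over replicate 1 after TMM scaling, with exact binomial intervals at 95% (counting error only), 1.5-fold limits (dashed) and the middle 50% of IDs with at least 100 summed counts (grey, -0.35 to 0.25). COPB2 and CLTC lie below the lower limit, COPA just inside it, and the rest within or near the grey band.

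**Figure D4:**
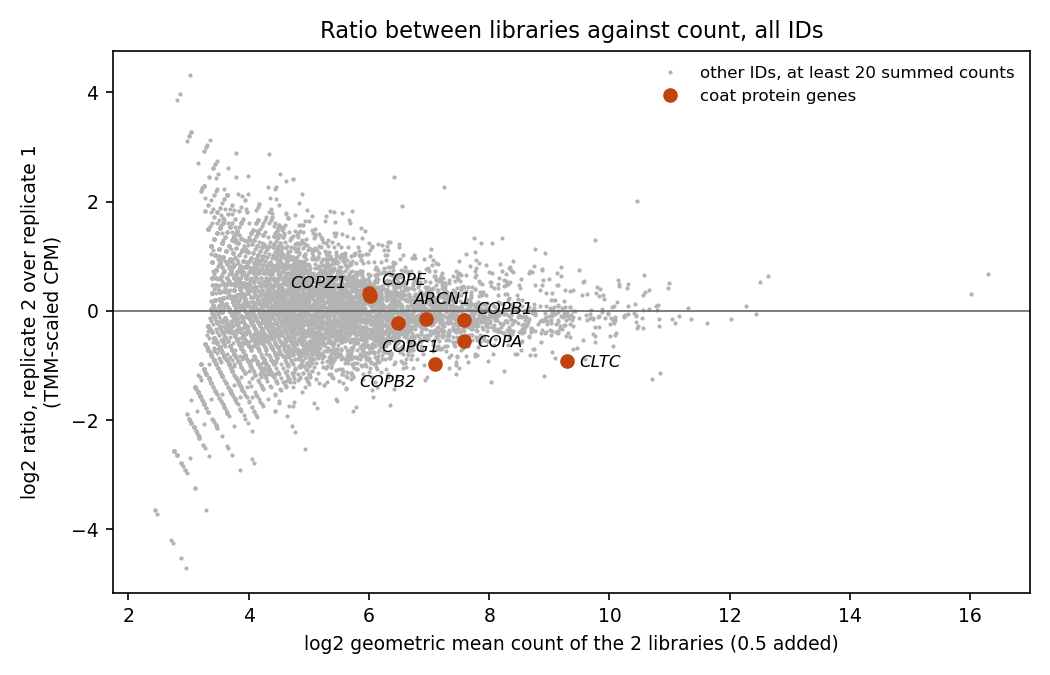
Log2 ratio of replicate 2 over replicate 1 against the log2 geometric mean count, for IDs with at least 20 summed counts (grey) and the coat genes (orange); 7 IDs at 0 in 1 library are not drawn. The scatter narrows as counts rise, and CLTC, the most read coat gene, lies near the lower edge at its count.

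The make-up of the coatomer fragments was compared next, as the share of the 7 coatomer genes' counts that each gene held in each library. Genes with longer coding sequences weigh more in these shares, which are shares of fragments and not of subunits made. The shares add up to the whole, so a smaller share of COPB2 raises those of the other genes. COPB2 made up 12.5% of coatomer counts in replicate 2 (10.0 to 15.3) and 19.7% in replicate 1 (17.5 to 22.1). COPE made up 9.14% in replicate 2 (7.01 to 11.7) and 5.86% in replicate 1 (4.60 to 7.35). COPZ1 made up 9.06% in replicate 2 (6.94 to 11.6) and 6.03% in replicate 1 (4.75 to 7.54). COPB2 thus held less of the coatomer counts in replicate 2, without overlap of the intervals. For COPE and COPZ1, the genes with the fewest fragments, the shares were larger in replicate 2 and the intervals overlapped slightly.

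For each of the remaining subunits the intervals of the 2 libraries overlapped. COPB1 held 23.2% in replicate 2 and 21.0% in replicate 1, a mean of 22.1% ± 1.56 (SD, n = 2). COPG1 held 10.7% in replicate 2 and 9.97% in replicate 1, a mean of 10.3% ± 0.483 (SD, n = 2). ARCN1 held 15.1% in replicate 2 and 13.4% in replicate 1, a mean of 14.3% ± 1.20 (SD, n = 2). The shares of COPB1, COPG1 and ARCN1 were larger in replicate 2 although their CPM was lower there. COPA held 20.3% in replicate 2 and 24.0% in replicate 1, a mean of 22.2% ± 2.61 (SD, n = 2). The inner layer as a whole (COPB1, COPG1, ARCN1 and COPZ1) held 58.0% of coatomer counts in replicate 2 (54.1 to 61.9) and 50.4% in replicate 1 (47.5 to 53.3). The outer layer (COPA, COPB2 and COPE) held the other 42.0% in replicate 2 (38.1 to 45.9) and 49.6% in replicate 1 (46.7 to 52.5). The outer layer was not uniform, since COPB2 and COPA held smaller shares in replicate 2 and COPE a larger one. The 2 layer shares add up to the whole, so they are a single comparison. Of the subunits, only COPB2 had share intervals that did not overlap. Layer shares without COPB2 were not computed, so a difference between the layers apart from COPB2 is not shown.

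**Figure D5:**
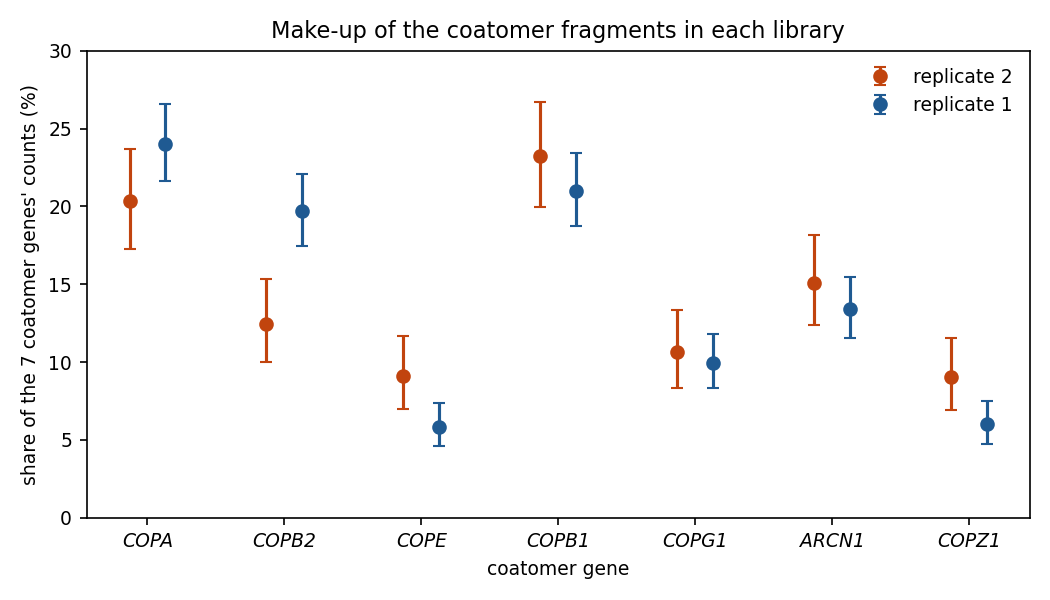
Share of the 7 coatomer genes' counts held by each gene, in percent, in replicate 2 (orange) and replicate 1 (blue), with exact Clopper-Pearson intervals at 95%. COPB2 holds 12.5% in replicate 2 and 19.7% in replicate 1, the one subunit whose intervals do not overlap.

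Coding length cancels where the count ratio of a pair of genes is set against the same ratio in the other library. The 28 pairs of coat genes were compared in this way, with exact intervals of the odds ratio at 95% that were not adjusted for the number of pairs. The interval of the change between libraries left out 0 in 12 pairs, and each of these 12 had COPB2, CLTC or COPA as a partner. Among the 10 pairs of the other 5 genes it left out 0 in none, with changes of at most 0.55 on the log2 scale. Each change is the difference between the log2 ratios of its genes given above. COPB2, CLTC and COPA were the genes whose own intervals left out 0, so the pairs restate those ratios. The intervals cover counting error only, and the share among other gene pairs was not computed. The 12 pairs are therefore a description and do not set these genes apart. COPB1 over ARCN1 was 1.54 in replicate 2 and 1.57 in replicate 1, a log2 change of -0.03 (-0.52 to 0.46). COPE over COPZ1 was 1.01 in replicate 2 and 0.972 in replicate 1, a log2 change of 0.05 (-0.69 to 0.82). The widest change was that of COPB2 over COPE, 1.37 in replicate 2 and 3.36 in replicate 1, a log2 change of -1.30 (-1.97 to -0.66).

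CLTC and COPB2 had the lowest log2 ratios of the 8 genes, and their ratio to each other restates that these lay close. COPB2 over CLTC was 0.213 in replicate 2 and 0.222 in replicate 1, a log2 change of -0.06 (-0.50 to 0.35). The width of that interval does not show that the ratio was unchanged. Against the coatomer as a whole, CLTC counts were 0.586 times those of the 7 genes in replicate 2 and 0.886 times in replicate 1, a mean of 0.736 ± 0.212 (SD, n = 2). CLTC made up 36.9% of the counts of the 8 genes in replicate 2 (33.9 to 40.0) and 47.0% in replicate 1 (44.9 to 49.1).

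Some of the deposited counts were not whole numbers. Such a value, more than 0.001 from a whole number, occurred for 4 of the 8 genes (COPB1, COPB2, COPE and CLTC), beside 21.6% of the 2239 IDs with at least 100 summed counts. In the RefSeq table, COPE and CLTC overlap no other listed gene. COPA, COPB1, COPB2, COPG1, ARCN1 and COPZ1 overlap between 1 and 3 genes each, among them the protein-coding IFT46 at ARCN1 and GPR84 at COPZ1, and the miRNA gene MIR148B within COPZ1. That table is of GRCh38.p14 and the counts of hg19, so overlaps in the authors' annotation may differ. COPG1, COPZ1 and CLTC also have paralogs (COPG2, COPZ2 and CLTCL1) whose counts were not analysed here. The part of divided or shared fragments in the differences between libraries was not tested.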

How the data were processed

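Per the labels' protocols, RNA from RNase I-digested lysates was size-selected at 20 to 38 nt, with ribosomal RNA not removed. The deposited values are estimated counts of 27 to 29 nt fragments per Ensembl ID, unscaled, with some values not whole. The submitters' processing notes name hg19. Aligner, counter, annotation and strand setting were not given in the sources used here. Genes were matched by ID before the dot, and all 8 were named.

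CPM and shares used the total over all IDs. TMM factors came from edgeR 4.0.16 (R 4.3.3) on rounded values of IDs with at least 20 summed counts. Intervals of ratios are conditional exact binomial intervals on rounded counts. TMM scaling and the intervals of ratios were tested on simulated counts with known folds and Poisson noise. Such counts hold no spread between libraries beyond counting error. The shares, the pair comparisons and the motif search were not tested in this way. Alternatives were library-size and DESeq2 1.42.0 scaling, count minimums of 1 and 100, a 2-fold limit, a pseudocount of 1 CPM, totals without the 2 or 10 highest IDs, and each replicate left out. Footprint density per coding length was planned and not computed, because coding lengths were not available, and the reference table lists an Ensembl ID for 0 of 59792 genes. Calculations outside R used Python 3.11.15 and scipy 1.17.1. The genes and lists were chosen with earlier results of these data known.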

Additional observations from a re-analysis of the deposited data

How the results depend on the processing

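The directions of the 8 log2 ratios were kept under library-size scaling, DESeq2 scaling and a pseudocount of 1 CPM. The count of genes lower past 1.5-fold, 2 after TMM scaling, was 3 by library size and with TMM over IDs of at least 1 summed count, and 0 at 2-fold. No gene was higher past 1.5-fold under any of these. The summed share, 0.212%, was 0.281% without the 10 highest IDs, as removal shrinks the total, and ran from 0.163% to 0.260% with 1 replicate left out. CLTC over the coatomer genes ran from 0.586 to 0.886 and the median percentile from 91.6 to 94.4 with 1 replicate left out. The median percentile was 88.3 among IDs with at least 20 summed counts, which follows from fewer sparse IDs below. Densities per coding length and their alternatives were not run. No paired analysis was possible because the libraries form 1 group. Depth limits COPE, COPZ1 and COPG1, with 57 to 119 counts per library, and also COPB2 (78.5 counts) and ARCN1 (95 counts) in replicate 2.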
